A study of Mus musculus with 12 samples.

Results

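The nasal prominences of Neo/Null mouse embryos were compared with those of Neo/Wt embryos at E10.5, shortly before the upper lip and primary palate fuse. The comparison rests on 6 of the 12 arrays of the study, 3 of each genotype, chosen by their titles. Of 45037 probe sets on the array, 21088 were called present in both nasal groups by the authors and were tested, and these stand for 10394 of the 18193 genes with a symbol of their own. Neo/Null embryos carry 1 hypomorphic allele of *Tfap2a*, a floxed allele that keeps a selection cassette and is written aflox in the labels, and 1 null allele. Neo/Wt embryos, titled control, carry the same hypomorphic allele and a wild-type allele, so *Tfap2a* is altered in both groups. The embryos came from crosses of Neo/Neo females with heterozygous null males on an outbred Black Swiss background, and each array held RNA from a separate pool of dissected nasal tissue. The sources used here state neither how many embryos made a pool nor the neural tube status of the pooled embryos.

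*Tfap2a* encodes AP-2α, a transcription factor of the surface ectoderm and of the neural crest, whose cells fill the facial prominences. The medial and lateral nasal prominences grow around the nasal pit and fuse with the maxillary prominence to close the lip. The ectoderm at the rim of the pit and at the anterior neural ridge makes Fgf8 and Fgf17, secreted growth factors that bind Fgf receptors on neighbouring cells, and the receptors act through Ras and Erk kinases. Erk signaling switches on its own brakes, the Sprouty and Spred proteins and the phosphatase Dusp6, together with the transcription factors Etv4 and Etv5.

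The values are log2 signals per probe set. All pairs of nasal arrays correlated at 0.994 or above over the tested probe sets. The tissue matched its label in both genotypes. *Pax7*, a paired-box factor of the nasal mesenchyme, lay between 8.40 and 8.54 in the Neo/Null and between 8.10 and 8.76 in the Neo/Wt nasal pools, and at 4.20 or less in every maxillary pool. *Lhx8*, a LIM homeodomain factor of the first arch, lay at 5.09 or less in the Neo/Null and 5.70 or less in the Neo/Wt nasal pools and at 10.40 or more in the maxillary pools, and 0 of 27 Hox genes with a probe set were present in both nasal groups. The pools differed in sex makeup. *Xist*, expressed from the inactive X chromosome, was lowest in the second Neo/Null pool, at 8.66, and highest in the third Neo/Wt pool, at 10.27. The 5′ control probe set for 18S ribosomal RNA had signals of 6.91, 6.51 and 6.76 in Neo/Null and 6.14, 6.09 and 6.26 in Neo/Wt pools, and its part in the results was not tested. In such bulk samples, fewer cells of a type and less RNA per cell cannot be told apart.

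*Tfap2a* itself did not separate the genotypes. Its brightest probe set had log2 signals of 9.14, 9.19 and 9.07 in Neo/Null and 9.06, 9.12 and 9.19 in Neo/Wt pools, a difference of 0.01 (SE 0.07). The other 2 probe sets differed by 0.08 (SE 0.08) and -0.05 (SE 0.11). The genotypes overlapped at all 3. Which of the mutant transcripts these probe sets can detect is not given in the sources used here, so they do not check the genotype. The relatives *Tfap2b* and *Tfap2c* differed by 0.04 (SE 0.10) and 0.12 (SE 0.14).

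Differences between the genotypes were few and mostly small. At a limma p adjusted by Benjamini and Hochberg over the 21088 probe sets, 1 was higher in Neo/Null (0.00474%) and 0 were lower. A looser rule, a change of over 1.25-fold with an unadjusted limma p under 0.05, is called the 1.25-fold rule below. The study's own legends use the same fold, but one calls its P adjusted and the others do not say, so these counts are not those of the study. By the 1.25-fold rule Neo/Null was higher at 130 probe sets (0.616%) and lower at 31 (0.147%), for 109 and 22 named genes. The median fold difference was 1.30 among the higher and 0.771 among the lower ones. The genotypes did not overlap at 85 of the 130 and 21 of the 31, while over all tested probe sets 6.22% were higher and 1.97% lower without overlap. The calls come from the same arrays, so the rule itself favours probe sets without overlap, and these shares give the calls no further support. The 24 genes with the smallest p described below were picked among probe sets without overlap. With 3 pools of each genotype an exact permutation test cannot go below p = 0.1. The counts depended on single pools: 385 were higher without Neo/Null replicate 3, 324 without Neo/Wt replicate 3, 224 without Neo/Wt replicate 2 and 71 without Neo/Wt replicate 1. Lower ones numbered 99 without Neo/Null replicate 2, 60 without Neo/Wt replicate 3 and 56 without Neo/Null replicate 1.

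The distribution over the tested probe sets leaned toward Neo/Null. Of the 10394 genes, each represented by its brightest tested probe set, 65.5% had a higher signal in Neo/Null, and the median difference was 0.03 on the log2 scale. Over the tested probe sets the share was 62.8%. Without the filter on present calls, 49.1% of all 45037 probe sets were higher, with a median of -0.002. Unadjusted calls then numbered 1028 higher and 1322 lower. The lean was widest at middle signals, with a median of 0.04 over probe sets with a mean log2 signal between 6 and 8 and of 0.01 above 10. With quantile normalization 53.3% of genes were higher, and unadjusted calls numbered 504 higher and 244 lower probe sets, in place of 669 (3.17%) and 150 (0.711%). Of the 6 pools, Neo/Null replicate 1 and Neo/Wt replicate 1 moved the lean most, to 53.7% and 56.6% of genes higher when each was left out. Counts of higher genes in the lists below are to be read against 65.5%, and their calls against the 3.41% of genes that were higher, and the 0.481% that were lower, at limma p-values under 0.05 before adjustment.

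**Figure D1:**
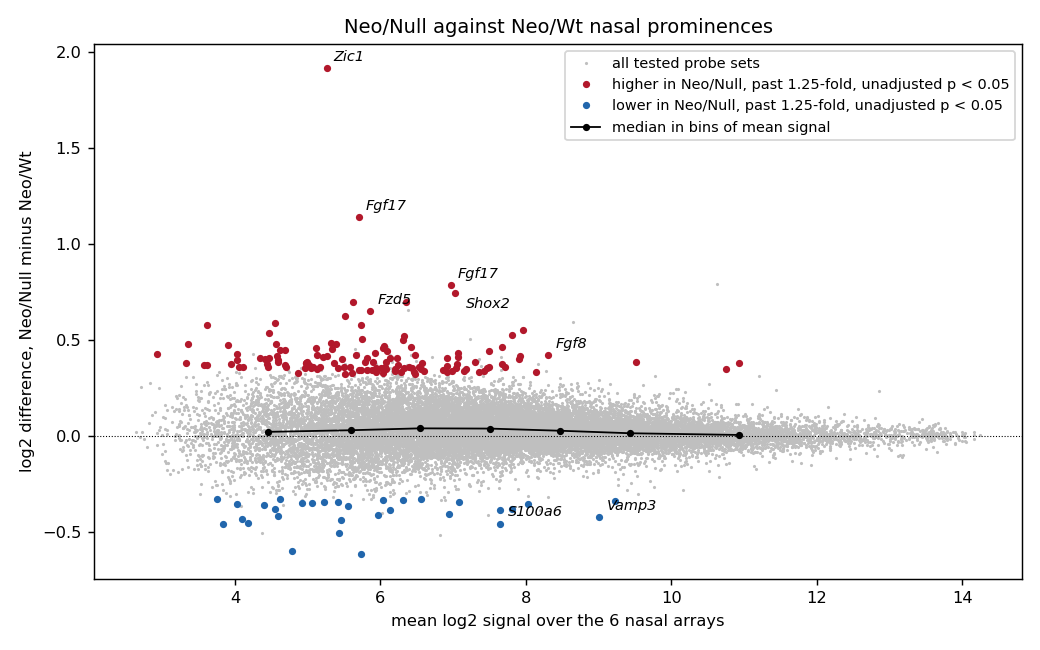
Log2 difference between Neo/Null and Neo/Wt nasal prominences (vertical axis) against the mean log2 signal over the 6 nasal arrays (horizontal axis) for the 21088 tested probe sets, with the 130 higher and 31 lower ones by the 1.25-fold rule in red and blue and the median in bins of signal as a black line. *Zic1* and 1 probe set of *Fgf17* stand above 1 on the log2 scale, and the black line stays above 0 across the range.

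*Zic1* rose in Neo/Null nasal tissue and alone passed the adjusted test. Its product is a zinc finger protein found in the dorsal neural tube, the edges of the forebrain and parts of the head mesenchyme, where it regulates transcription. The brighter of its probe sets had log2 signals of 6.28, 6.13 and 6.23 in Neo/Null and 4.004, 4.14 and 4.77 in Neo/Wt pools. The Neo/Null pools lay close together and all above the Neo/Wt pools, of which the third was the highest. The difference was 3.77-fold, with a 95% confidence interval of 2.81 to 5.04 (limma adjusted p = 0.00548). The adjusted p was 0.0665 without Neo/Null replicate 1, 0.0547 without Neo/Null replicate 3 and 0.0683 without Neo/Wt replicate 2. The log2 difference stayed between 1.76 and 2.14 whichever nasal pool was left out. With an offset of 32 added to the linear signals it was 1.03 in place of 1.91 (limma adjusted p = 0.000616). The Neo/Wt signals were low, so the size of the fold depends on how low signals are treated.

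A dimmer probe set of *Zic1* was called present in Neo/Null alone and was not tested. Its signals were 4.62, 4.43 and 3.96 in Neo/Null and 2.76, 2.75 and 3.00 in Neo/Wt pools, again without overlap. In the maxillary prominences the brighter probe set was called absent in Neo/Wt and variable in Neo/Null, with signals of 2.89, 3.36 and 3.25 in Neo/Null and 3.21, 2.58 and 2.88 in Neo/Wt. The other Zic genes were near background in nasal tissue. *Zic5* had 4.65, 4.59 and 4.68 in Neo/Null and 4.29, 4.44 and 4.25 in Neo/Wt nasal pools at one of its probe sets, a difference of 0.32 (SE 0.12, unadjusted p = 0.0246), and 0.15 (SE 0.10) at its brighter one. In maxillary pools the first of these had 5.43, 4.99 and 4.89 in Neo/Null and 3.97, 4.25 and 4.21 in Neo/Wt. The maxillary differences were 0.97 and 0.60 at the brighter one. *Zic2* and *Zic4* were not called present in the nasal groups.

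AP-2 proteins bind as dimers to a palindrome, written here as GCCNNNGGC, in which N is any base. It was searched on both strands, which read the same letters, in the 250 bases before the start of each gene in RefSeq (GRCm38.p6), and 13.7% of 32851 such windows hold it. Among genes, counting all windows of each, 24.6% of the tested ones with a window hold a match, as do 24 of the 77 higher genes (31.2%) and 3 of the 16 lower genes (18.8%) with a window by the 1.25-fold rule. Of the 24 genes with the smallest p described here, 12 in each direction, 16 were matched to a window and 6 of these have a match. The matches at *Vmac*, with higher, and *Zfx*, with lower signal in Neo/Null, are not shown. The sequences of the other 4 are given 5′ to 3′ on the strand of the gene, with matches in capitals. They belong to the gene that passed the adjusted test, to 2 other genes with higher and to 1 gene with lower signal in Neo/Null. They are the windows of *Zic1* (chr9:91365769-91366018, minus strand), *Six3os1* (chr17:85618397-85618646, minus strand), *Chn2* (chr6:54039682-54039931, plus strand) and *Thrb* (chr14:17660710-17660959, plus strand).
Zic1: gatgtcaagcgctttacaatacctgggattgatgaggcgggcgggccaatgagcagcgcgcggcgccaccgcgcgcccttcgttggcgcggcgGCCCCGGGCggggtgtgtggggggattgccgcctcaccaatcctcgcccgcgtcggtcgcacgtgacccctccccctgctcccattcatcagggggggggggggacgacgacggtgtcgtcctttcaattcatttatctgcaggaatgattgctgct
Six3os1: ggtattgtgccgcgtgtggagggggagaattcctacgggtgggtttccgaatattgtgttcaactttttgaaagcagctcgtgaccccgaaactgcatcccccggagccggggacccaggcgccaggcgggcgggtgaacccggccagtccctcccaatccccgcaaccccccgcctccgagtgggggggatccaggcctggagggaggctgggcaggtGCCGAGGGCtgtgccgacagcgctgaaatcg
Chn2: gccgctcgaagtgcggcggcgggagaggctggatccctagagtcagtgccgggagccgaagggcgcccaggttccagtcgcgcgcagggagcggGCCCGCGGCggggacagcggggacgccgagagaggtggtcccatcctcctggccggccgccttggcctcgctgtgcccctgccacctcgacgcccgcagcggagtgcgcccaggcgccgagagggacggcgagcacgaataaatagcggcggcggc
Thrb: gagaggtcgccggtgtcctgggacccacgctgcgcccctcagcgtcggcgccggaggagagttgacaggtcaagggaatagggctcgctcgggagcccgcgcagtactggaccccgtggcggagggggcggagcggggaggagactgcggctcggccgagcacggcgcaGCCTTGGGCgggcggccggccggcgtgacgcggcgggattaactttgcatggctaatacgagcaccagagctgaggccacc
The match starts 157 bases before the start of *Zic1*, 31 before *Six3os1*, 156 before *Chn2* and 81 before *Thrb*. *Chn2* and *Thrb* also have windows at other starts, which hold no match. Which start the probe sets report was not tested. A match describes these letters only.

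Of the 3 secreted Fgf ligands tested, *Fgf17* and *Fgf8* were higher in Neo/Null at an unadjusted p under 0.05, and the brighter probe set of *Fgf9* was not. *Fgf17* was measured by a pair of probe sets. The dimmer one had log2 signals of 6.54, 5.97 and 6.30 in Neo/Null and 4.72, 5.23 and 5.45 in Neo/Wt pools, a 2.20-fold difference (95% interval 1.70 to 2.85, limma adjusted p = 0.184). The brighter one had 7.26, 7.34 and 7.48 in Neo/Null and 6.26, 6.50 and 6.96 in Neo/Wt pools, a 1.72-fold difference (95% interval 1.38 to 2.16, limma adjusted p = 0.754). The genotypes did not overlap at either, which the rule that picked the dimmer one required of it. The first Neo/Wt pool was the lowest at both. The dimmer probe set passed the adjusted test with a variance trend and robust estimation (adjusted p = 0.00681) and with a score of sex-linked genes as a covariate, an alternative chosen after seeing the data (adjusted p = 0.0101). The brighter one passed without Neo/Wt replicate 3, its highest Neo/Wt pool (adjusted p = 0.0443). Neither passed under the other alternatives in which it was tested.

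*Fgf8*, the ligand of the nasal pit rim, had log2 signals of 8.59, 8.51 and 8.45 in Neo/Null and 7.99, 8.11 and 8.19 in Neo/Wt pools, with no overlap (difference 0.42, SE 0.11, unadjusted p = 0.00224). *Fgf9*, a ligand of epithelia, had 7.25, 7.22 and 7.18 in Neo/Null and 7.14, 7.25 and 7.43 in Neo/Wt pools at its brighter probe set (difference -0.06, SE 0.09), and a dimmer one differed by 0.24 (SE 0.11, unadjusted p = 0.0479). The genotypes overlapped at both. *Fgf12* encodes an intracellular relative of the Fgfs that binds sodium channels and is not secreted. It had signals of 6.57, 6.44 and 6.68 in Neo/Null and 5.91, 6.24 and 6.04 in Neo/Wt pools, a 1.41-fold difference (unadjusted p = 0.00322), and its dimmer probe set, at 3.84, 3.95 and 3.50 in Neo/Null and 3.29, 3.37 and 3.50 in Neo/Wt pools, differed 1.29-fold (unadjusted p = 0.0182).

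The feedback genes of the pathway had small differences of one direction. Of 14 tested feedback and Ets target genes all 14 were higher in Neo/Null, with a median of 0.12, against 0.03 over all genes. With quantile normalization 12 of the 14 were higher, with a median of 0.09, and the median without Neo/Null replicate 1 was 0.06. An unadjusted p under 0.05 was reached by 2 of them. *Spry1*, a Sprouty inhibitor, had 8.30, 8.41 and 8.42 in Neo/Null and 8.07, 8.14 and 8.21 in Neo/Wt pools (difference 0.24, SE 0.08). *Dusp6*, the Erk phosphatase, had 10.97, 10.89 and 11.05 in Neo/Null and 10.75, 10.80 and 10.87 in Neo/Wt pools (difference 0.17, SE 0.07). Both were free of overlap between the genotypes.

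*Spry4* depended on the probe set. The brightest had 6.75, 6.57 and 6.47 in Neo/Null and 6.37, 6.57 and 6.45 in Neo/Wt pools (difference 0.13, SE 0.09), while a dimmer one had 5.51, 5.50 and 5.24 in Neo/Null and 5.03, 5.10 and 4.89 in Neo/Wt pools (difference 0.41, SE 0.12, unadjusted p = 0.00508). The Ets factors *Etv5* and *Etv4* differed by 0.16 (SE 0.10) and 0.14, and *Spry2* by 0.16 (SE 0.09). Among 12 receptor and relay genes 8 were higher, with a median of 0.06, and 0 reached an unadjusted p under 0.05. *Fgfr1*, the receptor of the facial mesenchyme, differed by 0.12 (SE 0.10), and *Grb2*, an adaptor that links receptors to Ras, by 0.15 (SE 0.09).

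**Figure D2:**
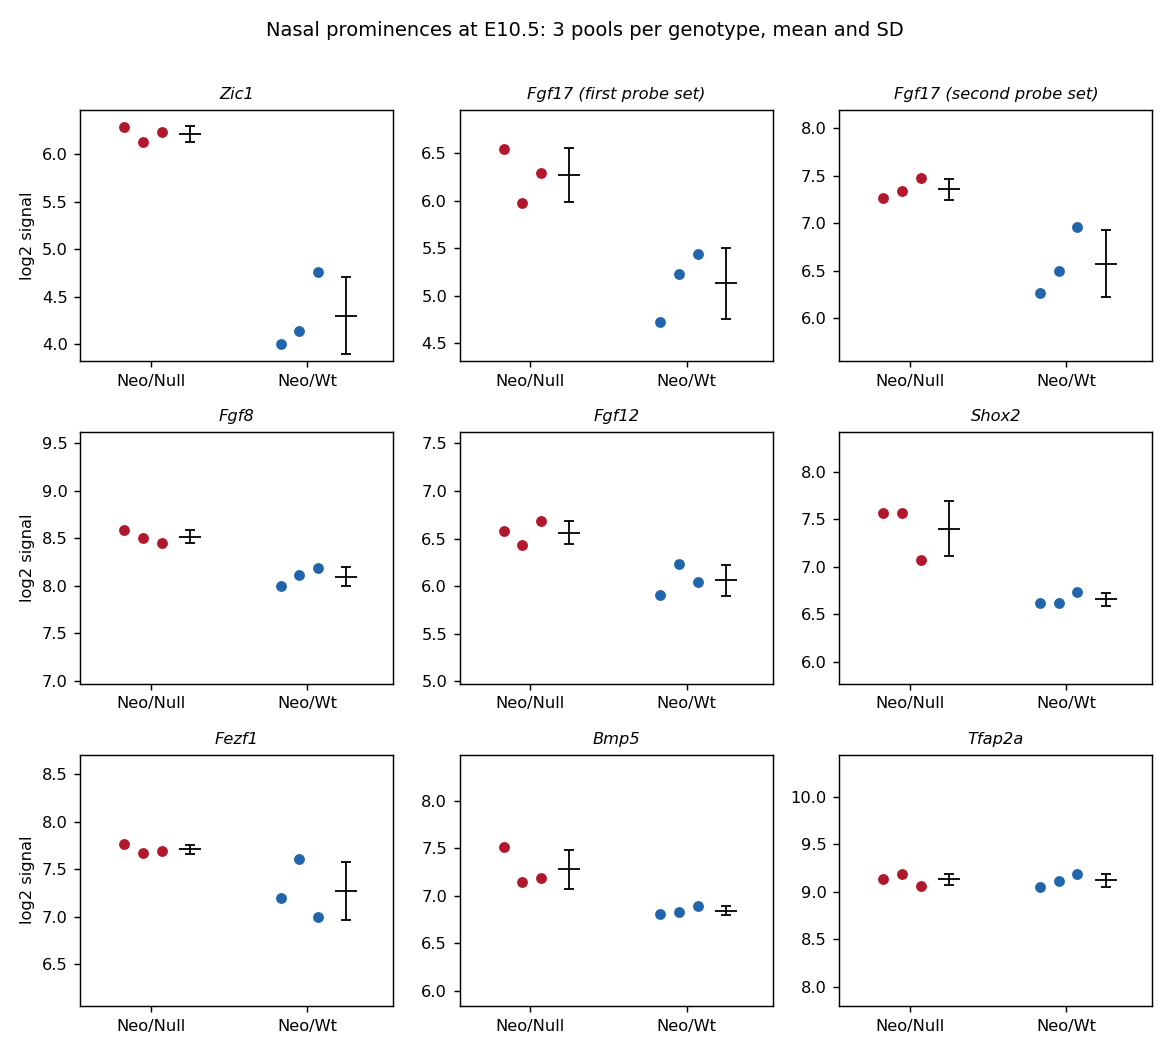
Log2 signals (vertical axes, of equal span) of 9 probe sets in the 3 Neo/Null (red, left) and 3 Neo/Wt (blue, right) nasal pools, with the mean and SD beside each group. The genotypes are apart for *Zic1*, *Fgf17*, *Fgf8*, *Fgf12*, *Shox2*, *Fezf1* and *Bmp5*, and overlap for *Tfap2a*. Lack of overlap was part of the rule that picked *Zic1*, *Shox2* and the dimmer *Fgf17* probe set.

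Genes of the rostral forebrain and its rim were on balance higher in Neo/Null nasal tissue. The list of forebrain neuroepithelium had 17 tested genes, of which 16 were higher, and the median was 0.23. The count was 15 of 17 with quantile normalization and 14 or 15 of 17 when single nasal pools were left out, and the median then ran from 0.15 to 0.24. An unadjusted p under 0.05 was reached by *Fezf1* and *Sox2*. *Fezf1*, a zinc finger repressor of the forebrain and the olfactory epithelium, had 7.77, 7.67 and 7.70 in Neo/Null and 7.20, 7.60 and 7.005 in Neo/Wt pools (difference 0.44, SE 0.12). *Sox2*, a factor of neural and placodal progenitors, had 10.09, 10.03 and 10.29 in Neo/Null and 9.78, 9.90 and 10.06 in Neo/Wt pools, with overlap (difference 0.23, SE 0.09).

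*Emx2*, a homeodomain factor of the dorsal forebrain, had 6.80, 6.79 and 6.65 in Neo/Null and 6.40, 6.60 and 6.26 in Neo/Wt pools. The genotypes were apart, and the unadjusted limma p was 0.113. That p is not a measure of nasal spread alone, because the fit includes the maxillary pools. The *Emx2* nasal SDs were 0.08 in Neo/Null and 0.17 in Neo/Wt. Its maxillary signals were 4.60, 4.75 and 4.23 in Neo/Null and 5.75, 6.34 and 5.41 in Neo/Wt. *Fabp7*, a fatty acid binding protein of radial glia that is also in the list of glial crest and Schwann precursors, had 6.73, 6.75 and 6.64 in Neo/Null and 5.69, 5.88 and 6.59 in Neo/Wt pools. The third Neo/Wt pool came close to the Neo/Null pools, and the spread among Neo/Wt pools was wide. In the glial crest list 3 of 7 genes were higher, with a median of -0.00405, and the 1 with an unadjusted p under 0.05, the cadherin *Cdh6*, was lower (difference -0.26). Outside the list, *Six3os1*, an antisense transcript next to the forebrain gene *Six3*, had 6.09, 5.94 and 5.89 in Neo/Null and 5.43, 4.93 and 5.47 in Neo/Wt pools, a 1.62-fold difference (unadjusted p = 0.000494). *Six3* itself had 6.48, 6.50 and 6.74 in Neo/Null and 6.41, 6.11 and 6.39 in Neo/Wt pools. *Shtn1*, whose protein shootin guides axon outgrowth, had 6.93, 6.65 and 6.54 in Neo/Null and 5.89, 6.01 and 6.12 in Neo/Wt pools, a 1.62-fold difference (unadjusted p = 0.000258).

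The summed linear signal of the 17 forebrain genes ran from 4389 to 4625 in Neo/Null and from 3879 to 4103 in Neo/Wt pools, without overlap. Whether more neural tissue was taken with the Neo/Null nasal pools was not tested. Genes of new neurons had wide spreads. Of 21 tested, 18 were higher (median 0.14, and 0.05 without Neo/Null replicate 1), and 1, *Uchl1*, a ubiquitin hydrolase abundant in neurons, had an unadjusted p under 0.05, with 8.63, 8.71 and 8.64 in Neo/Null and 8.47, 8.44 and 8.40 in Neo/Wt pools. Their summed signal ran from 3465 to 4012 in Neo/Null and from 3199 to 3528 in Neo/Wt pools and overlapped. With the score of sex-linked genes as a covariate, 9 of the 21 were higher and the median was -0.01, so the direction of this list turned. *Nefm*, a neurofilament subunit, had 5.88, 6.20 and 5.54 in Neo/Null and 5.68, 5.84 and 4.75 in Neo/Wt pools.

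Transcription factors of the facial mesenchyme had no steady direction. Of 35 tested, 19 were higher, with a median of 0.02, which turned to -0.07 without Neo/Null replicate 2 and -0.02 without Neo/Wt replicate 3 and was 0.06 without Neo/Null replicate 3. In this list 0 reached an unadjusted p under 0.05 by their brightest probe set, with the spread of maxillary pools in the fit. *Shox2*, a homeodomain factor of the nasal and maxillary mesenchyme, was the one with the largest difference. Its brightest probe set had 8.95, 9.16 and 8.72 in Neo/Null and 8.47, 8.35 and 8.24 in Neo/Wt pools (difference 0.59, SE 0.34, unadjusted p = 0.103). Another had 7.57, 7.57 and 7.07 in Neo/Null and 6.62, 6.62 and 6.74 in Neo/Wt pools, a 1.67-fold difference (95% interval 1.36 to 2.06, limma adjusted p = 0.754). The genotypes were apart at both, which the rule that picked the latter probe set required of it. The brightest probe set of *Alx1*, an aristaless-type factor of the nasal mesenchyme, had 10.98, 11.09 and 10.69 in Neo/Null and 11.09, 11.16 and 10.75 in Neo/Wt pools, and *Msx1*, a homeodomain factor of the distal mesenchyme, differed by -0.06.

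Wnt and Bmp genes gave a few members with higher signal. Wnt ligands are secreted proteins that stabilise β-catenin through Frizzled receptors, and Bmps activate Smad factors. Of 32 tested Wnt receptors, effectors, antagonists and targets 20 were higher (median 0.08), with 2 at an unadjusted p under 0.05. *Fzd5*, a Frizzled receptor of the eye field and ectoderm, had 6.46, 5.97 and 6.12 in Neo/Null and 5.40, 5.24 and 5.96 in Neo/Wt pools, 1.57-fold and apart by a narrow gap (unadjusted p = 0.0038). *Tcf7l2*, a partner of β-catenin on DNA, had 6.77, 6.60 and 6.34 in Neo/Null and 6.25, 6.28 and 6.11 in Neo/Wt pools (difference 0.36, SE 0.10). All 5 tested Wnt ligands were higher, with differences of 0.18 or less, and 0 had an unadjusted p under 0.05. *Wnt9b*, a Wnt ligand of the facial ectoderm, was called variable in Neo/Null and present in Neo/Wt nasal tissue at its brighter probe set and was not tested. That probe set had 6.90, 6.38 and 6.47 in Neo/Null and 6.64, 6.79 and 6.69 in Neo/Wt pools.

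Of 26 Bmp and Tgfb pathway genes 17 were higher (median 0.05), with 3 at an unadjusted p under 0.05. *Bmp5*, a ligand, had 7.51, 7.14 and 7.18 in Neo/Null and 6.81, 6.83 and 6.89 in Neo/Wt pools, apart and 1.35-fold higher (unadjusted p = 0.00347). *Id4*, a target gene of Bmp signaling, differed by 0.25 (SE 0.10), and *Acvr2b*, a receptor, by 0.18 (SE 0.08). *Bmp4*, a ligand of the distal nasal ectoderm and mesenchyme, differed by -0.13. Genes of the Hedgehog and retinoic acid pathways lay near the median of all genes, with medians of 0.03 over 13 and of 0.03 over 14 genes. *Boc*, a co-receptor for Hedgehog proteins, was lower, with 7.22, 7.23 and 7.33 in Neo/Null and 7.59, 7.44 and 7.47 in Neo/Wt pools (difference -0.24, SE 0.08, unadjusted p = 0.00885). *Cyp26a1*, which breaks down retinoic acid, had 7.75, 7.35 and 7.69 in Neo/Null and 7.14, 7.21 and 7.42 in Neo/Wt pools, with overlap (difference 0.34, SE 0.13).

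All 16 tested Notch pathway genes had a higher signal in Neo/Null, with a median of 0.12. Notch receptors signal between touching cells and switch on Hes and Hey repressors. The count was 16 of 16 with quantile normalization too, and 13 of 16 without Neo/Null replicate 1 or without Neo/Wt replicate 1. An unadjusted p under 0.05 was reached by 3. *Jag1*, a ligand, had 7.84, 7.86 and 7.85 in Neo/Null and 7.56, 7.63 and 7.63 in Neo/Wt pools (difference 0.25, SE 0.09). *Notch3*, a receptor, differed by 0.22 (SE 0.09) and *Mfng*, which adds sugars to Notch receptors, by 0.21 (SE 0.08). *Hes5*, a target repressor of neural progenitors, differed by 0.19 at its brightest probe set, and a dimmer one had 6.20, 6.05 and 6.56 in Neo/Null and 5.90, 5.74 and 5.79 in Neo/Wt pools (difference 0.46, SE 0.14).

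**Figure D3:**
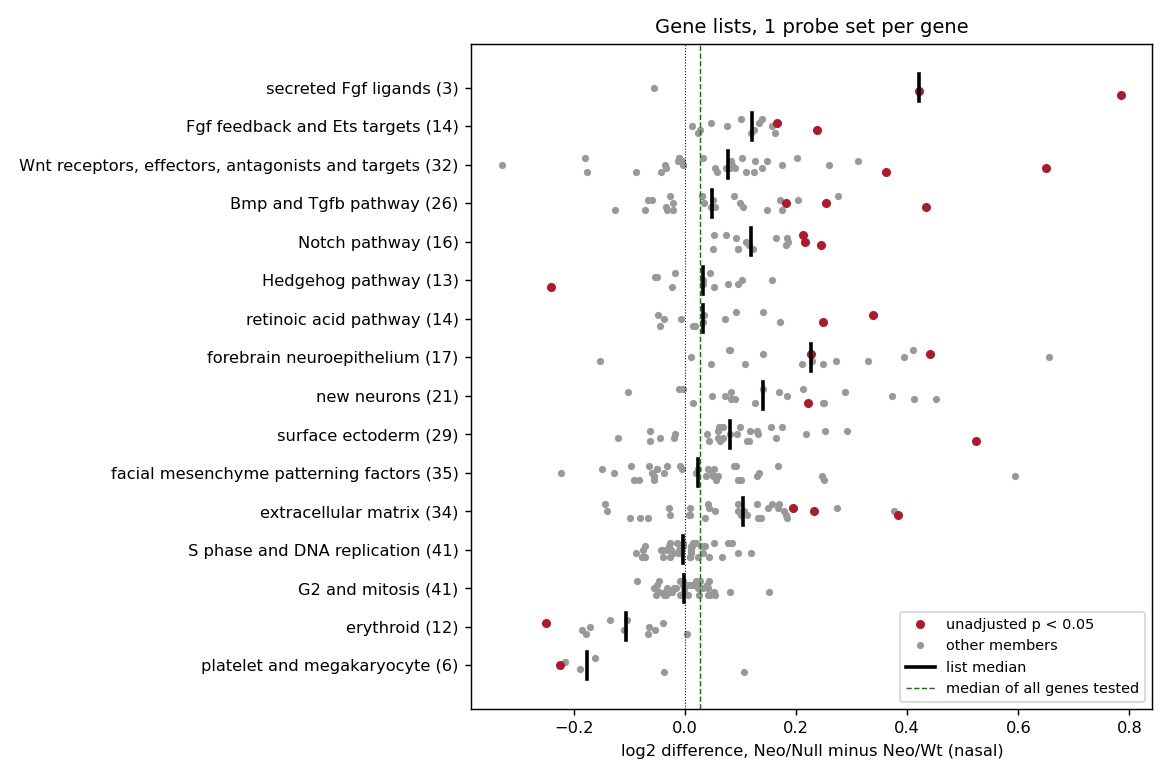
Log2 difference between Neo/Null and Neo/Wt nasal prominences (horizontal axis) for each tested gene of 16 lists (rows, number of tested genes in brackets), with an unadjusted p under 0.05 in red, list medians as black bars and the median of all genes as a green dashed line. All members of the Notch and Fgf feedback lists lie right of 0 (12 of the 14 Fgf feedback genes with quantile normalization), and the erythroid and platelet lists lie mostly left of it.

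Matrix, guidance and epithelial genes included several with higher signal. Of 34 extracellular matrix genes 27 were higher (median 0.10), and without Neo/Null replicate 2 these numbered 18, with a median of 0.06. *Lum*, a proteoglycan of collagen fibrils, had 9.77, 9.81 and 9.53 in Neo/Null and 9.12, 9.35 and 9.49 in Neo/Wt pools (difference 0.38, SE 0.13). *Col2a1*, the cartilage collagen, which is also made by neuroepithelium, had 10.32, 10.34 and 10.24 in Neo/Null and 10.01, 10.19 and 9.99 in Neo/Wt pools (difference 0.23, SE 0.08). *Fbn2*, a fibrillin, differed by 0.19 (SE 0.07). Of 32 semaphorin, ephrin and guidance genes 22 were higher, with 3 at an unadjusted p under 0.05. These were the secreted cues *Ntn1*, at 0.35 (SE 0.11), and *Slit2*, at 0.27 (SE 0.09), and the membrane ligand *Efna1*, at 0.33 (SE 0.11). *Alcam*, an immunoglobulin-type adhesion protein, passed the 1.25-fold rule at a pair of probe sets, with differences of 0.49 (SE 0.15) and 0.42 (SE 0.18).

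Markers of the surface ectoderm, the tissue in which AP-2α acts together with the crest, were on balance higher by a small amount, with 23 of 29 higher and a median of 0.08. The median was 0.03 without Neo/Wt replicate 1, 0.04 without Neo/Null replicate 1, and 0.14 without Neo/Null replicate 2 or Neo/Wt replicate 3. *Krt19*, a keratin, had 8.32, 7.82 and 8.06 in Neo/Null and 7.23, 7.46 and 7.95 in Neo/Wt pools, with overlap (difference 0.52, SE 0.22, unadjusted p = 0.035). *Cdh1*, the epithelial cadherin, had 9.09, 8.73 and 8.73 in Neo/Null and 8.49, 8.79 and 8.62 in Neo/Wt pools. The summed signal of the 29 genes ran from 11455 to 13542 in Neo/Null and from 10738 to 12737 in Neo/Wt pools. *Sp8*, a zinc finger factor of the nasal pit ectoderm, had 7.85, 7.43 and 7.66 in Neo/Null and 7.07, 7.35 and 7.46 in Neo/Wt pools (difference 0.35, SE 0.15). It was the 1 gene with an unadjusted p under 0.05 among 11 of the nasal placode epithelium, of which 7 were higher, with a median of 0.06 that was -0.02 without Neo/Wt replicate 1. Their summed signal ran from 3913 to 4260 in Neo/Null and from 3634 to 4382 in Neo/Wt pools and overlapped.

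Genes of the cell cycle were close to equal. Of 41 genes of S phase and DNA replication 20 were higher, with a median of -0.00367, and of 41 genes of G2 and mitosis 20 were higher, with a median of -0.0021. In both lists 0 genes had an unadjusted p under 0.05. With median centring these counts were 27 and 28, and with quantile normalization 16 and 18. *Ccnb2*, a mitotic cyclin, had 10.95, 10.96 and 10.90 in Neo/Null and 10.97, 11.00 and 10.99 in Neo/Wt pools. *Cdkn1a*, the cyclin-dependent kinase inhibitor p21, had 8.03, 7.76 and 7.54 in Neo/Null and 7.43, 7.50 and 7.50 in Neo/Wt pools, apart by a narrow gap (difference 0.30, SE 0.12, unadjusted p = 0.0325).

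Among the other genes with the smallest p, those higher in Neo/Null had diverse roles. *Pck2*, the mitochondrial form of phosphoenolpyruvate carboxykinase, had 7.55, 7.53 and 7.41 in Neo/Null and 7.04, 7.13 and 7.16 in Neo/Wt pools (difference 0.39, SE 0.08, unadjusted p = 0.00021). It belongs to the list of the amino acid response, of which it was the 1 of 22 tested genes with an unadjusted p under 0.05. *Chn2*, a Rac GTPase-activating protein, had 6.06, 5.99 and 5.96 in Neo/Null and 5.22, 5.57 and 5.70 in Neo/Wt pools (difference 0.51, SE 0.11). *Pan3*, part of a complex that shortens poly(A) tails, had 6.27, 6.28 and 6.39 in Neo/Null and 5.79, 5.90 and 5.93 in Neo/Wt pools (difference 0.44, SE 0.09). *Spire1*, an actin nucleator, *Atxn2*, an RNA-binding protein, *Vmac* and *Minar2* differed by 0.42, 0.33, 0.36 and 0.36. Their genotypes did not overlap, which the rule that picked these genes required. The brightest probe set of *Spire1* was another one and differed by -0.04.

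Probe sets of 1 gene often disagreed. Of 59 genes with a higher call and more than 1 tested probe set, the brightest probe set was among the called ones for 19, more than 1 probe set was called for 5, and all probe sets had the same sign for 46. *Braf*, a kinase of the Erk cascade, is an example chosen after its values were seen. A dim probe set had 5.85, 5.76 and 5.86 in Neo/Null and 4.88, 5.23 and 5.48 in Neo/Wt pools, a difference of 0.63, and the brightest had 8.22, 8.01 and 7.996 in Neo/Null and 7.86, 7.92 and 8.002 in Neo/Wt pools. The brightest differed by 0.15 with overlap and another by 0.18 without overlap. The lowest difference among its 7 tested probe sets was -0.16. Among 15 genes with a lower call and several probe sets, the brightest was called for 1 and all had the same sign for 7.

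Lower signals in Neo/Null were fewer and dimmer. Of the 31 lower probe sets 11 had a mean log2 signal under 5, and 9 had no symbol. Of the 130 higher ones 32 had a mean log2 signal under 5. The median of the mean log2 signals was 5.46 for the lower and 5.89 for the higher ones, against 7.62 for all tested probe sets. *Zfx*, an X-linked zinc finger factor, had the smallest p of the named ones, with 3.75, 3.87 and 4.02 in Neo/Null and 4.27, 4.27 and 4.37 in Neo/Wt pools (difference -0.43, SE 0.10). *Rgs18*, a regulator of G protein signaling in platelets, had 3.67, 3.51 and 3.61 in Neo/Null and 3.87, 4.22 and 4.09 in Neo/Wt pools (difference -0.46, SE 0.11). *Tubb1*, the β-tubulin of platelets, had 5.84, 5.85 and 5.93 in Neo/Null and 6.11, 6.21 and 6.29 in Neo/Wt pools (difference -0.33, SE 0.09).

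*Thrb*, a thyroid hormone receptor, had 3.79, 3.79 and 3.95 in Neo/Null and 4.19, 4.08 and 4.33 in Neo/Wt pools. Brighter signals belonged to *Mid1*, *Vamp3* and *S100a6*. *Mid1*, an X-linked ubiquitin ligase bound to microtubules, had 8.86, 9.16 and 9.14 in Neo/Null and 9.56, 9.34 and 9.27 in Neo/Wt pools (difference -0.34, SE 0.10). *Vamp3*, a vesicle fusion protein, had 8.48, 9.09 and 8.83 in Neo/Null and 9.27, 9.27 and 9.12 in Neo/Wt pools (difference -0.42, SE 0.13). *S100a6*, a calcium-binding protein, had 7.50, 7.26 and 7.50 in Neo/Null and 7.70, 7.84 and 8.08 in Neo/Wt pools (difference -0.45, SE 0.15). The genotypes did not overlap at any of the 3, which the rule that picked these genes required. *Fam136a*, *Slc35a3*, *Nin*, *Rbm12b2* and *Fkbp15* had differences of -0.42 to -0.33. For *Zfx* and these 5 genes the brightest probe set was another one, and it differed by -0.02 to 0.07.

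Blood cell genes leaned to the lower side. Of 12 tested erythroid genes 11 were lower, with a median of -0.11, and of 6 platelet and megakaryocyte genes 5 were lower, with a median of -0.18. *Gata1*, the erythroid and megakaryocyte factor, had 5.74, 5.94 and 5.87 in Neo/Null and 6.20, 6.07 and 6.03 in Neo/Wt pools (difference -0.25, SE 0.08, unadjusted p = 0.00812). *Itga2b*, the platelet integrin, had 6.63, 6.75 and 6.91 in Neo/Null and 7.15, 6.95 and 6.86 in Neo/Wt pools, with overlap (difference -0.23, SE 0.10). *Hba-x*, an embryonic globin, had 12.75, 12.82 and 12.75 in Neo/Null and 12.81, 12.96 and 12.86 in Neo/Wt pools. The summed erythroid signal ran from 30730 to 32497 in Neo/Null and from 32193 to 34757 in Neo/Wt pools, and that of platelet genes from 909 to 974 in Neo/Null and from 924 to 1091 in Neo/Wt pools. The erythroid median was -0.0346 without Neo/Null replicate 3 and -0.0566 without Neo/Wt replicate 2, and the platelet median was -0.08 without Neo/Wt replicate 2. Endothelial and macrophage genes had medians of 0.01 over 21 and 0.01 over 13 genes.

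**Figure D4:**
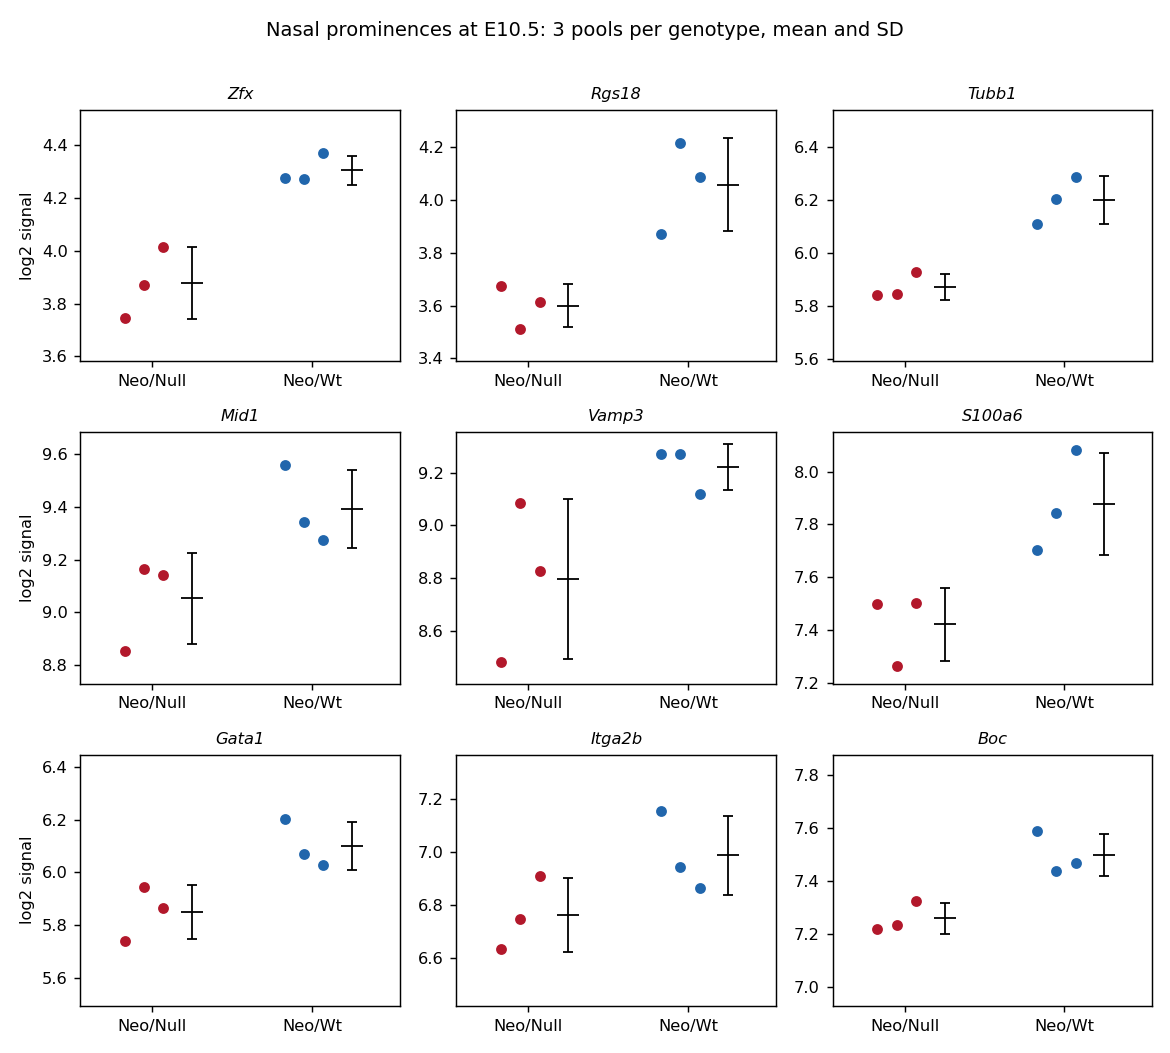
Log2 signals (vertical axes, of equal span) of 9 probe sets with lower signal in the 3 Neo/Null (red, left) than in the 3 Neo/Wt (blue, right) nasal pools, with the mean and SD beside each group. The genotypes overlap for *Itga2b* and are apart for the other 8. Lack of overlap was part of the rule that picked *Zfx*, *Rgs18*, *Tubb1*, *Mid1*, *Vamp3* and *S100a6*.

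Some probe sets were called present in 1 nasal genotype only and were not tested. There were 1335 for Neo/Null, of which 127 were called absent in Neo/Wt and the others variable, and 694 for Neo/Wt, of which 60 were called absent in Neo/Null. The genotypes did not overlap at 125 (9.36%) and 72 (10.4%) of them, where 6.22% of tested probe sets were higher and 1.97% lower without overlap. The calls depend on signal, so such probe sets tend to enter through the genotype where they are higher. Their shares are a description only. These probe sets were called variable or absent in the other genotype, so no fold is given. Present in Neo/Null only, beside the dimmer *Zic1* probe set, was *Tagln*, an actin-binding protein of smooth muscle, with 7.28, 6.98 and 6.70 in Neo/Null and 6.68, 6.57 and 6.20 in Neo/Wt pools, as were probe sets of *Vnn1*, *Agpat3* and *Dmrt2*. Present in Neo/Wt only, *Pla2g4d* had 3.89, 3.52 and 3.79 in Neo/Null and 4.27, 4.30 and 4.03 in Neo/Wt pools, and probe sets of *Ndufb4*, *Apool*, *Prdm10* and *Ak5* were also of this kind. Other probe sets of *Agpat3*, *Vnn1*, *Apool* and *Prdm10* were tested, and the genotypes overlapped at each.

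The genotype difference was set beside that in the maxillary prominences, dissected from embryos of the same crosses. Same-numbered nasal and maxillary pools had alike levels of sex-linked genes, and their deviations from the group means correlated at 0.20 to 0.30 in all 6 pairs, so the prominences were also compared with the pool as a block, an alternative added after seeing the data. Of 20153 probe sets present in all 4 groups, 0 had a difference between the prominences at a limma adjusted p under 0.05, and 735 had an unadjusted p under 0.05. With the pool as a block the counts were 0 and 886, and the smallest adjusted p, 0.0985, was that of *Emx2*, which differed by 0.33 in nasal and -1.31 in maxillary tissue. *Zic1*, *Fgf17*, *Fgf12*, *Fezf1* and *Six3os1* were not called present in both maxillary groups and were not part of that test. *Pck2* differed by 0.39 (SE 0.08) in nasal and -0.08 (SE 0.08) in maxillary tissue, and *Fgf8* by 0.42 (SE 0.11) in nasal and -0.03 (SE 0.11) in maxillary tissue (unadjusted p of the difference 0.012). *Bmp5*, *Tcf7l2*, *Jag1*, *Alcam* and *Cdkn1a* had differences of 0.43, 0.36, 0.25, 0.49 and 0.30 in nasal and of 0.37, 0.34, 0.29, 0.66 and 0.29 in maxillary tissue. Of the lower genes, *Mid1* differed by -0.34 in nasal and -0.32 in maxillary tissue and *Vamp3* by -0.42 in nasal and -0.34 in maxillary tissue. The nasal minus maxillary gap was -0.47 for *Zfx*, -0.58 for *Rgs18*, -0.51 for *Fkbp15* and -0.43 for *Nin*. Of the lower nasal probe sets tested in the maxilla, 14 of 25 had the same sign there, as had 76 of 103 higher ones. The median maxillary difference of the lower ones was -0.045. Of the 103 higher nasal probe sets tested in the maxilla, 12 passed the same rule there in the same direction, as did 3 of 25 lower ones. Over all maxillary probe sets 1.08% were higher and 0.311% lower by that rule. With same-numbered pools alike, the prominences are not independent, so these shares are not a replication. Of all genes tested in both, 42.3% of 9968 were higher in Neo/Null maxillary tissue. The shares there were 9 of 11 for Fgf feedback genes (median 0.10), 18 of 19 for new neurons (median 0.44), 18 of 25 for surface ectoderm (median 0.08), 12 of 30 for extracellular matrix (median -0.03), 7 of 15 for Notch (median -0.01) and 3 of 10 for forebrain genes (median -0.18). The difference of a list between the prominences was not tested.

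**Figure D5:**
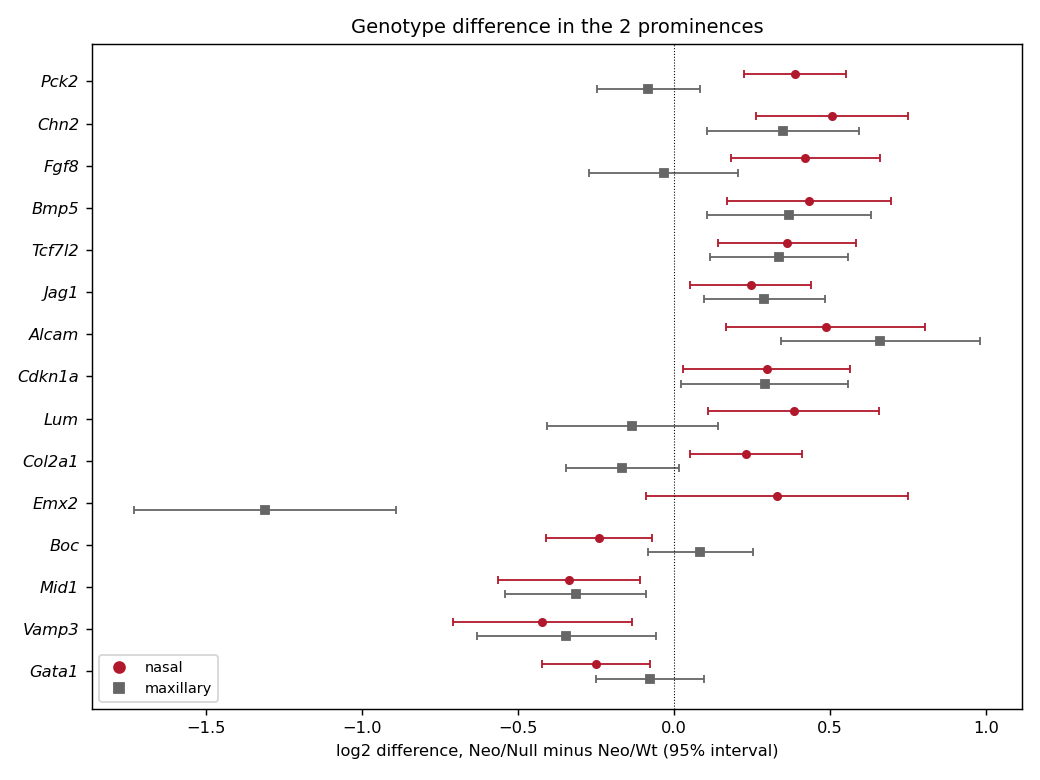
Log2 difference between Neo/Null and Neo/Wt (horizontal axis, with 95% intervals from limma) in nasal (red circles) and maxillary (grey squares) prominences for 15 named genes tested in both. The higher genes *Fgf8*, *Pck2* and *Lum* and the lower genes *Boc* and *Gata1* are among those with intervals that leave out 0 in nasal and include it in maxillary tissue. *Bmp5*, *Tcf7l2*, *Mid1* and *Vamp3* are among those with intervals that leave it out in both, and *Emx2* points in opposite directions.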

How the data were processed

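RNA from 12 pools of dissected facial prominences was labelled by the authors and hybridised to Affymetrix Mouse430 2.0 arrays, 3 pools for each genotype and prominence. The deposited values are log2 signals, scaled by the authors to a single target intensity. The file header names MAS5.0 signals, and the log step is not given in the sources used here. The authors also deposited a detection score per group (present, variable or absent). The 12 columns that repeat the log2 values were not used. No depth exists for arrays, and the number of pools limits the precision.

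Control probe sets (64) were left out, and the 21088 present in both nasal groups were tested with limma 3.58.1 in R 4.3.3, with 1 mean per group over all 12 arrays, moderated over all 45037 probe sets, and Benjamini-Hochberg adjustment over those tested. The p-values measure the spread between pools only. A looser rule took a change over 1.25-fold with an unadjusted p under 0.05. The study uses this fold, calls its P adjusted in one legend and names no test. A single symbol was given to 34945 probe sets, several to 932 and none to 9160. Lists use the brightest tested probe set of each gene.

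Named were the 12 genes with the smallest p in each direction by that rule without overlap, genes the study targets, up to 4 members of each list by p, Zic genes, and 5 genes in each direction called present in 1 genotype. Other names serve as markers or were chosen after their values were seen. The members and lists were chosen with earlier results of these data known. Alternatives were median centring, quantile normalization, an offset of 32, no filter, a mean log2 signal of at least 7, the nasal arrays alone, a replicate block, array weights, a variance trend, leaving out each pool, and, added after seeing the data, a sex-marker score and a block of the pool for the comparison of prominences. The fits were tested on simulated data.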

Additional observations from a re-analysis of the deposited data

Results flagged for a closer look

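For 3 named genes all Neo/Null pools lay above all Neo/Wt pools in nasal tissue and below them in maxillary tissue. *Emx2* differed by 0.33 in nasal and -1.31 in maxillary tissue, a gap of 1.64 on the log2 scale. *Dhrs3*, which reduces retinal, had a gap of 0.43, and *Acvr2b* a gap of 0.34. The limma adjusted p of each gap was 0.999, and with the pool as a block it was 0.0985 for *Emx2* and 0.998 for the other two.

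The control probe sets for 18S ribosomal RNA, which are outside the comparison, were higher in Neo/Null nasal pools, by 0.56 on the log2 scale for the 5′ set and by 0.26 for the middle one, and by 0.12 with overlap for the 3′ set. In maxillary pools the differences were 0.74, 0.55 and 0.38.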

How the results depend on the processing

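The adjusted test called 1 probe set higher, 0 with a replicate block (over 12 or over 6 arrays) or at a mean log2 signal of at least 7, 2 without the filter, with the offset of 32 or with the sex-marker score, 3 with the variance trend and robust estimation, and 0 to 2 when single pools were left out. By the 1.25-fold rule the 130 higher and 31 lower probe sets became 25 and 7 at a signal of at least 7, 201 and 199 without the filter, 23 and 4 with the offset, and 267 and 67 with the sex-marker score, and ranged from 71 to 385 and from 35 to 99 without single pools. At an unadjusted p under 0.05 the 669 higher and 150 lower became 297 and 36 at a signal of at least 7, 1028 and 1322 without the filter, and 1047 and 238 with the sex-marker score. Lower ones numbered 243 with the offset and 244 with quantile normalization. Without single pools the ranges were 250 to 1237 higher and 135 to 269 lower. Of the unadjusted calls 81.7% were higher, against 88.2% with median centring, 67.4% with quantile normalization and 43.7% without the filter. The cause was not tested.

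Replicate numbers did not pair Neo/Null with Neo/Wt nasal pools, whose same-numbered deviations correlated at -0.17, 0.14 and 0.22. With a block by number within prominence over 12 arrays the *Zic1* adjusted p was 0.116, and over 6 arrays 0.0878. This replicate block gave 1 difference between prominences in place of 0, *Emx2* (adjusted p = 0.0222), where the block of the pool within genotype gave 0.

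Directions turned for some genes near 0, and for medians near 0, those of facial mesenchyme, nasal placode, glial crest and cell cycle genes among them. When single pools were left out, *Tfap2a* ran from -0.119 to 0.0268 at its dimmest probe set and from -0.0224 to 0.0434 at its brightest. *Tfap2c* ran from -0.0711 to 0.231, *Fgf9* from -0.124 to 0.0238, *Fgf13* from -0.0345 to 0.165, *Wnt5b* from -0.0502 to 0.205, *Wnt7b* from -0.0814 to 0.15, *Sox7* from -0.00177 to 0.232, *Adgrf5* from -0.108 to 0.0128, *Pax7* from -0.0615 to 0.265 and *Xist* from -0.516 to 0.0627. The brightest *Tfap2a* probe set was at -0.0148 with quantile normalization, and *Pax7* at -0.0215 with array weights. With the sex-marker score *Wnt7b* was at -0.0241, *Pax7* at -0.0225 and *Xist* at 0.0922.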

Other observations

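*Ssr1*, a subunit of the translocon-associated protein complex that lies on the chromosome of *Tfap2a*, was picked out after its values were seen. Its brightest probe set had log2 signals of 11.35, 11.35 and 11.40 in Neo/Null and 11.03, 11.02 and 11.11 in Neo/Wt nasal pools (difference 0.31, limma adjusted p = 0.754). A second probe set differed by 0.32, and the other 2 by -0.19 and -0.02. In maxillary tissue the first 2 differed by 0.36 and 0.50 (limma adjusted p = 0.189 and 0.188) and the other 2 by -0.23 and 0.07. In order along the chromosome it is the tested gene number 8 from *Tfap2a*. Of the 50 tested genes nearest to *Tfap2a*, 31 were higher in Neo/Null, where 65.5% of all genes were higher. An unadjusted limma p under 0.05 was reached by 3 of these 50, all higher, where 3.41% of all genes were higher and 0.481% lower at that p. In maxillary tissue 44 of the 50 were tested, and 2 were higher and 2 lower at that p.

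Imprinted growth genes had 11 of 15 tested members higher, with a median of 0.04. *Dlk1*, a membrane protein of progenitors, had 11.10, 10.94 and 11.33 in Neo/Null and 10.48, 10.68 and 11.06 in Neo/Wt pools, with overlap. Cholesterol synthesis genes had 7 of 20 higher (median -0.02), and genes of hypoxia and glycolysis 11 of 24 (median -0.01), with 0 at an unadjusted p under 0.05 in both lists.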
